A study of Mus musculus with 27 samples.

Results

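BAF is a chromatin remodelling complex that moves or evicts nucleosomes with the energy of ATP. The genes described here are 10 of its subunits, chosen by symbol from a list, of the 20156 genes in the expression tables, and all 10 were found there. In 3 paralogous pairs 1 member is typical of the form of the complex found in pluripotent cells (Smarca4, Smarcc1 and Smarcd1) and the other is typical of forms found in somatic cells (Smarca2, Smarcc2 and Smarcd3). The remaining 4, Smarcb1, Arid1a, Actl6a and Smarce1, belong to both. RNA-seq and MNase ChIP-seq, in which chromatin cut to nucleosomes by micrococcal nuclease is precipitated with an antibody, were measured in mouse embryonic fibroblasts (MEFs), pre-iPSCs, a stable intermediate of reprogramming, and induced pluripotent stem cells (iPSCs). RNA, histone H3, H3K4me3 (a mark of active promoters) and H3K27me3 (a mark of Polycomb repression) have 2 libraries in each cell type, and H3K9me3 (a mark of heterochromatin) has 1.

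The MEFs came from mid-gestation embryos hemizygous for an Oct4-GFP transgene and a Rosa26 allele. The labels give CBA/CaJ and C57BL/6J as the genetic background, and by the study's methods the mothers were of a further inbred strain. Pre-iPSCs and iPSCs were made from such MEFs with retroviral Oct4, Sox2, Klf4 and c-Myc. Pre-iPSCs and iPSCs each stood for a pair of stable clones, and the sources used here do not tie a library to a clone. MEFs had been kept for fewer passages than both reprogrammed types. By the study's methods both pre-iPSCs and iPSCs were grown with LIF on MEF feeder layers, so the RNA and chromatin of either type can hold some from fibroblasts. MEF chromatin was digested with another amount of MNase and for another time. P-values rest on the spread between the 2 libraries of a type, pooled over the types and moderated over all genes, which may in part be technical. For expression, a shift between the 2 replicates that all types share is not part of that spread.

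The subunits of BAF are encoded in part by small families whose members replace each other in the complex. Smarca4 (BRG1) and Smarca2 (BRM) are its alternative ATPases, Smarcc1 (BAF155) and Smarcc2 (BAF170) are scaffold subunits, and the Smarcd genes encode the BAF60 subunits. Embryonic stem cells are known for a complex built on Smarca4 and Smarcc1 with little Smarca2 and Smarcc2, whereas many differentiated cells also use the latter. Smarcd3 is best known from heart and muscle.

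The cell types were checked against their markers in FPKM, fragments per kilobase of transcript scaled to the mapped fragments. The summed level of 7 fibroblast markers was 4309 and 4085 FPKM for MEFs, 91.6 to 289 for pre-iPSCs and 201 to 233 for iPSCs, so fibroblast transcripts were low but present in both reprogrammed types. All 4 libraries of those types had lower levels of Col1a1 than both MEF libraries. The 7 pluripotency markers summed to 0.0233 and 0.904 FPKM for MEFs, 632 and 3524 for pre-iPSCs and 2271 and 2138 for iPSCs. The 7 did not move together in pre-iPSCs. Nanog, Zfp42 and Esrrb were at 0 to 0.519 FPKM in MEFs and pre-iPSCs and at 49.5 to 73.6 FPKM in iPSCs, and Dppa5a was at 1.70 and 5.01 FPKM in pre-iPSCs against 725 and 842 in iPSCs. Tdgf1 was already at 228 and 333 FPKM in pre-iPSCs, beside 258 and 488 in iPSCs, and Utf1 was at 23.2 and 1.67 FPKM in pre-iPSCs, beside 544 and 220 in iPSCs. Pou5f1, which encodes Oct4, was at 378 and 3184 FPKM in pre-iPSCs and at 586 and 397 in iPSCs. These FPKM do not tell transcripts of the retroviral Oct4 from those of the endogenous gene. Pou5f1 made up most of the summed level of the pluripotency markers in pre-iPSCs. The 4 leukocyte markers summed to 6.19 to 51.7 FPKM over the 6 libraries, with the defining Ptprc at no more than 0.24 FPKM and Emr1 at no more than 0.969. The macrophage markers Lyz2 and Cd68 were detected in every library, Lyz2 at 2.10 to 45.5 FPKM with the highest level in iPSC replicate 2, and Cd68 at 2.12 to 10.1 FPKM. Of 3 endothelial markers, Cdh5 reached no more than 0.106 FPKM and Kdr no more than 1.92, while Pecam1, also known from pluripotent cells, stood at 12.7 and 15.9 FPKM in iPSCs. The part of these markers in the results that follow was not tested.

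The 3 stretches of promoter sequence shown were chosen because their H3K27me3 or H3K4me3 reads, described further on, differed between cell types: the bases before the transcription start sites (TSSs) of Smarca2 and Smarcd3, and those before another annotated start inside Smarca2. They were read from mm9, the build of the deposited files, on the strand of the gene, and each CpG (the letters C and G in a row, the same on both strands) is in capitals. The stretches lie at chr19:26679400-26679649 on the + strand, chr19:26822643-26822892 on the + strand and chr5:24107831-24108070 on the - strand, and none overlaps an annotated exon. The Smarcd3 stretch has 240 bases, since the 10 bases next to the TSS, which are annotated as Smarcd3 exon, were left out.
Smarca2 TSS: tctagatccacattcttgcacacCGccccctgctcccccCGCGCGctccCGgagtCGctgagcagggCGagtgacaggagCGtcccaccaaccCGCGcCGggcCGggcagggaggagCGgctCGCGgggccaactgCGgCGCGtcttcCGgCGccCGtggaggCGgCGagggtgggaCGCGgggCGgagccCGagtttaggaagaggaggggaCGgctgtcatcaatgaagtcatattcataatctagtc
Smarca2 internal start: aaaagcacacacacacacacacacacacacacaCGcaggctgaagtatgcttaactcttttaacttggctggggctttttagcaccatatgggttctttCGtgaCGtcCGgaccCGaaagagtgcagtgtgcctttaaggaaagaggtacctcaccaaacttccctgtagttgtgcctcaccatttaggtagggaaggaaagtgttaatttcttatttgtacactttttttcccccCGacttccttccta
Smarcd3 TSS: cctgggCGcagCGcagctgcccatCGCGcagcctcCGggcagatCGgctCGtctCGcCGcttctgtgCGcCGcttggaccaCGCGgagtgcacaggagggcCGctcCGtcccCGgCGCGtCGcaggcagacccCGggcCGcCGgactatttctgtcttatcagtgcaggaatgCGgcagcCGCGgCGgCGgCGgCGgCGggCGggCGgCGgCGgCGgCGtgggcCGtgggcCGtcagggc
The 250 bases before the Smarca2 TSS held 28 CpGs and the full 250 before the Smarcd3 TSS held 38, all of them in the stretch printed. Over all 20156 genes the median was 11, 10.7% had at least 28 and 2.73% had at least 38, and 93.6% had at least 1. The 250 bases before the internal start held 6, a number reached by 65.2% of all promoters. The other members had 8 CpGs (Smarce1) to 40 (Smarcc2) in that window, and in 9 of the 10 the number was above the median of all genes.

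Expression was compared on the log2(FPKM + 1) scale with limma, and a gene was called at a Benjamini-Hochberg adjusted p below 0.05 over the 12401 genes tested and a change of at least 2-fold. The 1 added to each FPKM makes changes of weakly expressed genes look smaller than they are. All 10 members passed the filter on low values, 0.5 FPKM or more on average. In bulk RNA, fewer cells that express a gene and less of its RNA per cell cannot be told apart. Sequencing depth is unknown from the FPKM tables. Where libraries of 2 types are said not to overlap, this is description only. With 2 against 2 libraries, a share of 0.33 of the possible orders leaves no overlap. The share of all genes without overlap is not given here. From MEFs to iPSCs, 1 of 10 members rose (Smarcd1) against 10.3% of all genes tested, and 3 of 10 fell (Smarca2, Smarcc2 and Smarcd3) against 15.5%. From MEFs to pre-iPSCs, 2 of 10 rose (Smarcd1 and Smarca2) against 7.39% and 1 of 10 fell (Smarcd3) against 9.0%. From pre-iPSCs to iPSCs, none of the 10 rose against 3.91% of all genes, and 1 of 10 fell (Smarca2) against 4.71%; Smarca2 was also the single member below an unadjusted limma p of 0.05 there. With libraries centred on their median gene, 1674 genes rose and 1475 fell from MEFs to iPSCs (1279 and 1927 without centring), 604 rose and 442 fell from pre-iPSCs to iPSCs (485 and 584 without), and the calls of Smarcd1, Smarca2 and Smarcd3 remained. With no filter on low values, the calls left were Smarcd1 from MEFs to iPSCs and Smarca2 from pre-iPSCs to iPSCs. The lost member calls went with a loss of calls over all 20156 genes of that fit. Between MEFs and pre-iPSCs 0 genes were called, against 916 up and 1116 down in the main fit. Between pre-iPSCs and iPSCs 107 genes went up and 63 down, and between MEFs and iPSCs 283 went up and 266 down.

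**Figure D1:**
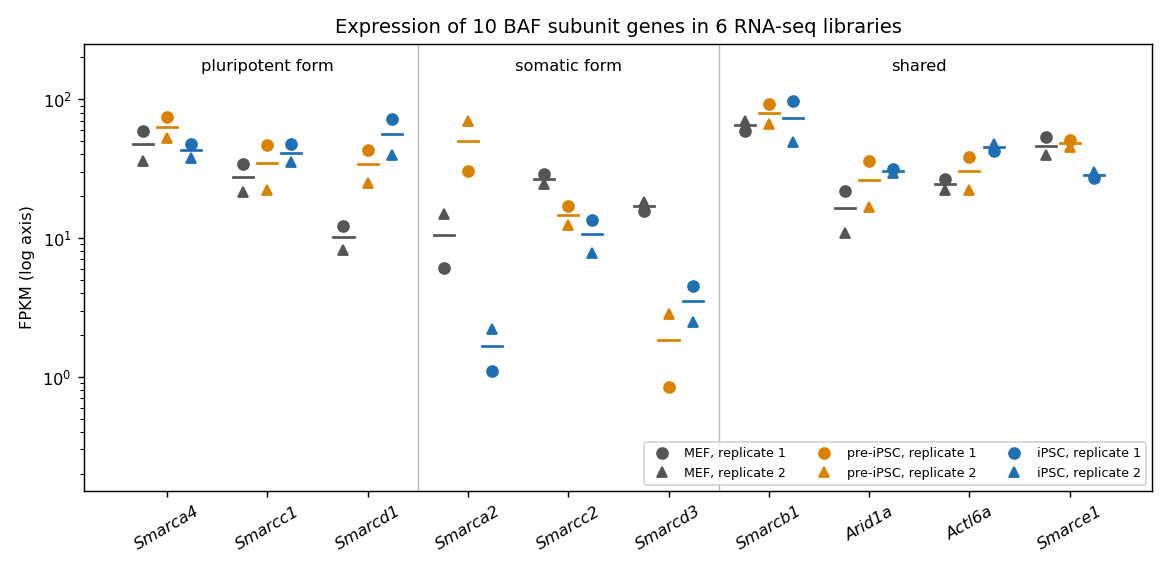
FPKM (log axis) of the 10 subunit genes in 6 RNA-seq libraries, with circles for replicate 1, triangles for replicate 2 and a line at the mean of each cell type. Smarca2 ranges from 1.10 to 69.2 FPKM with the highest values in pre-iPSCs, Smarcd1 is lowest in MEFs, and Smarcd3 and Smarcc2 are highest in MEFs.

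Smarca2, the BRM ATPase (chr19:26679650-26852811, mm9), had the largest change of any member. It stood at 6.10 and 14.8 FPKM for MEFs, 30.4 and 69.2 for pre-iPSCs and 1.10 and 2.23 for iPSCs. The 3 cell types did not overlap, with pre-iPSCs highest and iPSCs lowest and replicate 2 the higher library in each type. Within the 2 tables, which hold replicates 1 and 2, pre-iPSCs were 4.99-fold and 4.68-fold above MEFs. From MEFs to pre-iPSCs it rose by 2.15 ± 0.36 (log2, SE; limma, Benjamini-Hochberg adjusted p = 0.00865). From pre-iPSCs to iPSCs it fell by 4.17 ± 0.36 on the log2 scale (adjusted p = 0.0016), an 18.0-fold drop of FPKM + 1. The iPSC level was also below that of MEFs, by a log2 change of -2.02 ± 0.36 (adjusted p = 0.00786), and without iPSC replicate 2 the change was -1.75 (adjusted p = 0.0639). The rise to pre-iPSCs went against the pattern of the other somatic-form subunits, Smarcc2 and Smarcd3, whose levels were lower in pre-iPSCs than in MEFs. With 1 pre-iPSC library left out the rise was of like size but missed the threshold, at 2.29 (log2) without replicate 1 (adjusted p = 0.0518) and 2.01 without replicate 2 (adjusted p = 0.112).

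Smarca4, the BRG1 ATPase that replaces Smarca2, was at 59.2 and 35.7 FPKM for MEFs, 74.1 and 52.7 for pre-iPSCs and 47.9 and 37.9 for iPSCs. Both iPSC libraries were below both pre-iPSC libraries, and MEFs overlapped with each of the other types across the 2 tables. Within each table pre-iPSCs were above MEFs, by 1.25-fold and 1.48-fold. No comparison passed the test, with log2 changes of 0.43 ± 0.34, -0.54 ± 0.34 and -0.11 ± 0.34 (pre-iPSCs against MEFs, iPSCs against pre-iPSCs, iPSCs against MEFs). Of the summed FPKM of both ATPases, Smarca2 made up 9.33% and 29.3% for MEFs, 29.1% and 56.8% for pre-iPSCs and 2.25% and 5.54% for iPSCs. Replicate 2 of pre-iPSCs was the single library in which Smarca2 exceeded Smarca4. The mean log2 ratio of Smarca4 to Smarca2 was 2.27 ± 1.42 for MEFs, 0.45 ± 1.19 for pre-iPSCs and 4.77 ± 0.95 for iPSCs (SD, n = 2). The ratios of the paralogues are given as a description and were not tested. In both tables the ratio was lower in pre-iPSCs than in MEFs and higher in iPSCs than in either.

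Of the scaffold subunits, Smarcc2 fell and Smarcc1 did not pass the test. Smarcc2 (BAF170, chr10:127896292-127927230) was at 28.8 and 24.6 FPKM for MEFs, 17.1 and 12.4 for pre-iPSCs and 13.4 and 7.84 for iPSCs. Both MEF libraries were above the other 4, and pre-iPSCs and iPSCs overlapped across the 2 tables. Within each table iPSCs were below pre-iPSCs, by 1.27-fold and 1.58-fold. It fell by 1.29 ± 0.34 on the log2 scale from MEFs to iPSCs (limma, Benjamini-Hochberg adjusted p = 0.0314), while the change from MEFs to pre-iPSCs was -0.83 ± 0.34 and did not pass (adjusted p = 0.15). This fall was the least firm of the 4 calls between MEFs and iPSCs: with libraries centred on their median gene the change was -1.06 (adjusted p = 0.0686), and with quantile normalisation it was -0.96 (adjusted p = 0.0735). When MEF replicate 2 or any pre-iPSC or iPSC library was left out, the change lay between -1.48 and -1.10 with an adjusted p of 0.0819 to 0.148.

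Smarcc1 (BAF155) was at 33.9 and 21.5 FPKM for MEFs, 47.0 and 22.1 for pre-iPSCs and 47.2 and 35.1 for iPSCs. Both iPSC libraries were above both MEF libraries, but the change of 0.58 ± 0.35 did not pass (adjusted p = 0.265). Smarcc2 made up 45.9% and 53.4% of the pair for MEFs, 26.7% and 36.0% for pre-iPSCs and 22.1% and 18.2% for iPSCs, so the types did not overlap in this share. The mean log2 ratio of Smarcc1 to Smarcc2 was 0.02 ± 0.30 for MEFs, 1.15 ± 0.44 for pre-iPSCs and 1.99 ± 0.25 for iPSCs (SD, n = 2).

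**Figure D2:**
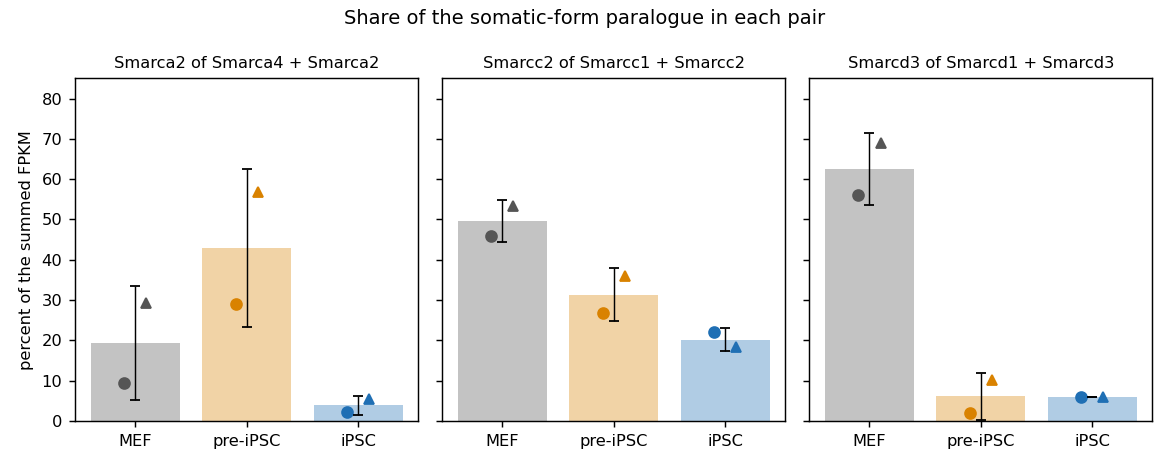
Percent of the summed FPKM of each paralogous pair that came from the somatic-form gene, by cell type, with bars at the mean, error bars of 1 SD, circles for replicate 1 and triangles for replicate 2. The Smarca2 share is highest in pre-iPSCs, the Smarcc2 share is lower in each next cell type, and the Smarcd3 share is 56.1% and 68.9% in MEFs and at most 10.2% in the other libraries.

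Smarcd1 (BAF60A, chr15:99532718-99544426) rose at the first step. It was at 12.2 and 8.24 FPKM for MEFs, 42.9 and 25.1 for pre-iPSCs and 72.1 and 39.5 for iPSCs. MEFs were below the other 4 libraries, and the ranges of pre-iPSCs and iPSCs overlapped across the 2 tables. Within each table iPSCs were above pre-iPSCs, by 1.68-fold and 1.57-fold. The rise was 1.62 ± 0.33 (log2, SE) from MEFs to pre-iPSCs (limma, Benjamini-Hochberg adjusted p = 0.0173) and 2.30 ± 0.33 from MEFs to iPSCs (adjusted p = 0.00369), a 4.93-fold rise of FPKM + 1. From pre-iPSCs to iPSCs the change was 0.68 ± 0.33 (adjusted p = 0.297). With 1 pre-iPSC library left out the rise to pre-iPSCs was of like size but missed the threshold, at 1.58 (log2) without replicate 1 (adjusted p = 0.202) and 1.65 without replicate 2 (adjusted p = 0.204).

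Smarcd3 (BAF60C, chr5:24098440-24107820) fell where Smarcd1 rose. It was at 15.6 and 18.2 FPKM for MEFs, 0.838 and 2.85 for pre-iPSCs and 4.53 and 2.46 for iPSCs. Both MEF libraries were above the other 4, which overlapped between the types. It fell by 2.75 ± 0.48 on the log2 scale from MEFs to pre-iPSCs (adjusted p = 0.00991) and by 2.03 ± 0.48 from MEFs to iPSCs (adjusted p = 0.0213). The change from pre-iPSCs to iPSCs, 0.72 ± 0.48, did not pass (adjusted p = 0.466). Without iPSC replicate 2 the log2 change from MEFs to iPSCs was -1.37 (adjusted p = 0.153), and without pre-iPSC replicate 1 the change to pre-iPSCs was -2.10 (adjusted p = 0.0867).

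The Smarcd1 and Smarcd3 pair thus had the widest swing of ratio. The mean log2 ratio of Smarcd1 to Smarcd3 was -0.75 ± 0.56 for MEFs, 4.41 ± 1.80 for pre-iPSCs and 4.00 ± 0.01 for iPSCs (SD, n = 2). The change was made by the step from MEFs, at 6.03 and 4.28 in the 2 tables, whereas the step from pre-iPSCs to iPSCs was -1.69 in 1 table and 0.87 in the other. The third paralogue, Smarcd2, was at 15.2 to 27.2 FPKM over the 6 libraries and no comparison of it passed. Of the summed FPKM of the 3 Smarcd genes, Smarcd1 made up 25.2% and 19.8% for MEFs, 61.3% and 45.5% for pre-iPSCs and 73.4% and 66.7% for iPSCs. Smarcd3 made up 32.2% and 43.8% in MEFs and between 1.20% and 5.18% in the other 4 libraries.

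**Figure D3:**
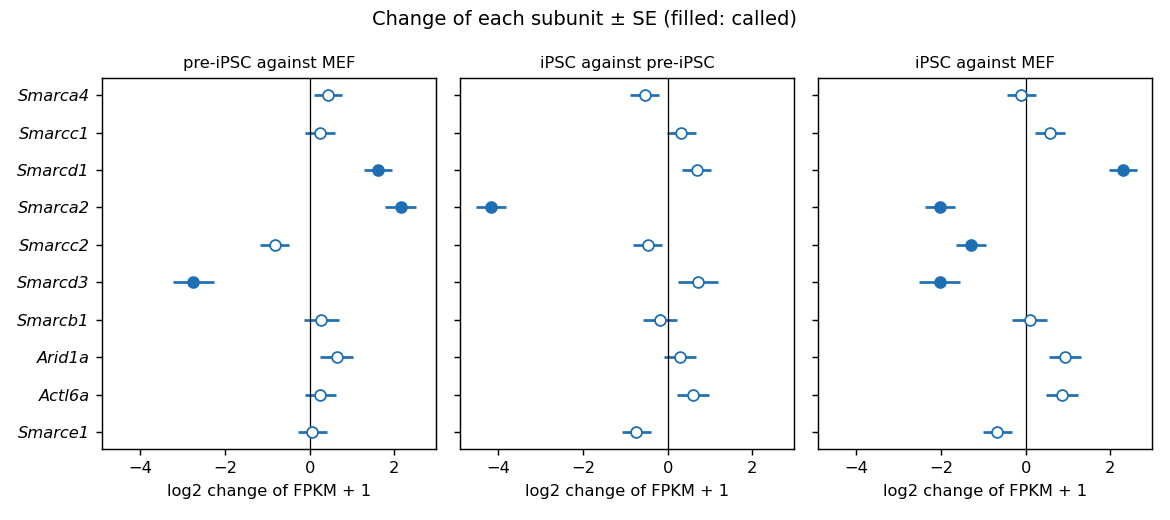
Log2 change of FPKM + 1 of each subunit (limma, points ± SE) in the 3 comparisons, with filled points for genes called at an adjusted p below 0.05 and at least 2-fold. Filled points are Smarcd1, Smarca2 and Smarcd3 from MEFs to pre-iPSCs, Smarca2 from pre-iPSCs to iPSCs, and Smarcd1, Smarca2, Smarcc2 and Smarcd3 from MEFs to iPSCs.

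None of the 4 subunits shared by the forms passed the test in any comparison by limma, and 1 of them, Arid1a from MEFs to iPSCs, was below an unadjusted p of 0.05. Their log2 changes lay between -0.74 and 0.92. Smarcb1, a core subunit also known as a tumour suppressor, was at 59.5 and 70.2 FPKM for MEFs, 92.6 and 66.5 for pre-iPSCs and 96.8 and 49.4 for iPSCs. These ranges overlapped. Arid1a, which defines the canonical form of BAF, was at 21.9 and 10.8 FPKM for MEFs, 35.7 and 16.8 for pre-iPSCs and 31.2 and 29.3 for iPSCs. Both iPSC libraries exceeded both MEF libraries, with a log2 change of 0.92 ± 0.38 that did not pass (limma, Benjamini-Hochberg adjusted p = 0.117). Actl6a (BAF53A), the actin-related subunit of dividing cells, was at 26.8 and 22.2 FPKM for MEFs, 38.6 and 22.1 for pre-iPSCs and 42.3 and 47.6 for iPSCs. iPSCs were above the other 4 libraries, and the change from MEFs of 0.85 ± 0.37 did not pass (adjusted p = 0.133). Smarce1 (BAF57), a DNA-binding subunit, was at 53.2 and 39.5 FPKM for MEFs, 50.4 and 45.6 for pre-iPSCs and 27.1 and 29.8 for iPSCs. It was lowest in iPSCs without overlap, with changes of -0.67 ± 0.35 from MEFs (adjusted p = 0.194) and -0.74 ± 0.35 from pre-iPSCs (adjusted p = 0.278).

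By groups, the 3 somatic-form genes had a median log2 change of -2.02 from MEFs to iPSCs and the 3 pluripotent-form genes one of 0.58, beside -0.14 over all genes tested. The median of the 4 shared subunits was 0.48. From MEFs to pre-iPSCs the medians were -0.83 for somatic-form genes, 0.43 for pluripotent-form genes and 0.26 for shared ones, beside -0.04 over all genes. From pre-iPSCs to iPSCs they were -0.46, 0.33 and 0.05, beside -0.09. The somatic-form genes ranged widely around their median, from -2.75 to 2.15 at the first step.

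In MEFs the FPKM order of the members ran from Smarcb1 (mean 64.8 ± 7.6, SD, n = 2), Smarca4 (47.4 ± 16.6) and Smarce1 (46.3 ± 9.7) down to Smarcd3 (16.9 ± 1.9), Arid1a (16.4 ± 7.9), Smarca2 (10.5 ± 6.2) and Smarcd1 (10.2 ± 2.8). In iPSCs Smarcb1 (73.1 ± 33.5) and Smarcd1 (55.8 ± 23.1) were first, and Smarcc2 (10.6 ± 4.0), Smarcd3 (3.50 ± 1.46) and Smarca2 (1.66 ± 0.79) were last. In pre-iPSCs Smarcb1 (79.6 ± 18.5), Smarca4 (63.4 ± 15.2) and Smarca2 (49.8 ± 27.5) were first and Smarcd3 (1.85 ± 1.43) was last. Of the 9 pairs of neighbours in each order, 6 (MEFs), 8 (pre-iPSCs) and 5 (iPSCs) differed by less than the larger of their SDs. The gap between Smarcc2 and Smarcd3 exceeded it in pre-iPSCs, and in iPSCs Smarcc2, Smarcd3 and Smarca2 were each apart from the gene above. FPKM is scaled to transcript length, and on that basis these levels were set beside each other between genes. The FPKM of a gene do not separate its transcripts, such as that from an internal start of Smarca2 described further on.

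Of 21 other genes of BAF and related complexes (PBAF, the form with a polybromo subunit, and ncBAF, a smaller form), 19 were in the tables and 18 passed the filter. None was called in any comparison, by limma at an adjusted p below 0.05 of any size, against 16.4%, 8.62% and 26.0% of all genes tested (pre-iPSCs against MEFs, iPSCs against pre-iPSCs, iPSCs against MEFs). In the same order 1, 1 and 3 of the 18 were below an unadjusted limma p of 0.05, against 31.4%, 21.6% and 39.3% of all genes. Dpf3 and Gltscr1l were the 2 not found by symbol. The medians of the 18 were -0.01, -0.28 and 0.11 (log2) in the 3 comparisons, and the lowest adjusted p was 0.0596. Of 10 remodelling ATPases and helicases of other complexes, 9 were in the tables and tested. Hells, which acts in DNA methylation of repeats, rose from MEFs to iPSCs by 2.17 ± 0.41 (adjusted p = 0.00951), and Rad54l, a recombination factor, rose by 1.44 ± 0.36 (adjusted p = 0.0264). Hells was at 17.9 and 8.04 FPKM for MEFs, 15.4 and 8.68 for pre-iPSCs and 53.6 and 62.1 for iPSCs, so its pre-iPSC values lay within the MEF range, and it also rose from pre-iPSCs to iPSCs, by 2.22 ± 0.41 (adjusted p = 0.0189).

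The genes whose 6-library pattern was most like that of Smarcd1, among 6024 tested genes whose cell type means differed by at least 1 on the log2 scale, were Tada2a (Pearson r = 0.997), Zfp13 (0.996) and Kdm1a (0.994). Those most like Smarcd3 were Aif1l (0.995), Rhob (0.992) and Spry1 (0.986). The r values describe likeness over 6 libraries of 3 types and share their tables. Kdm1a, a histone demethylase, was at 23.6 and 20.8 FPKM for MEFs, 46.2 and 32.6 for pre-iPSCs and 61.6 and 41.5 for iPSCs. Spry1, an inhibitor of growth factor signalling, was at 23.6 and 29.1 FPKM in MEFs and between 2.33 and 6.08 in the other 4 libraries.

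Every member had H3K4me3 reads at its promoter in every library, 19 to 85 of them, and no member passed the test for a change of its H3K4me3 reads. The deposited calls held 12007350 to 13146349 reads per H3K4me3 library, and reads of nucleosomes centred within 1000 bp of the TSS were compared over 17643 promoters with edgeR's quasi-likelihood test. None of the 10 members was called between pre-iPSCs and MEFs, against 3.89% of all promoters. None was called between iPSCs and pre-iPSCs, against 0.034%, and none between iPSCs and MEFs, against 14.0%. At an unadjusted p below 0.05 the sole member was Smarce1 from MEFs to iPSCs, where 30.0% of all promoters were. DESeq2 called no member. Of 17698 promoters it called 31 higher and 0 lower from MEFs to pre-iPSCs, and 113 higher and 4 lower from MEFs to iPSCs. Between pre-iPSCs and iPSCs it called 0. Levels are given as RPKM, reads per kilobase of window scaled to the unique reads of the library. The median over the members was 1.69 and 1.56 RPKM for MEFs, 1.18 and 1.01 for pre-iPSCs and 1.44 and 0.987 for iPSCs, beside 1.22 and 0.955, 0.858 and 0.812, and 0.900 and 0.822 over all genes.

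At Smarca2, whose RNA differed between the cell types by the widest margin, the H3K4me3 window held 43 and 62 reads for MEFs, 48 and 30 for pre-iPSCs and 47 and 28 for iPSCs. The types overlapped, and from pre-iPSCs to iPSCs the log2 change was -0.07 ± 0.28. At Smarcd3 the window held 55 and 56 reads for MEFs, 39 and 31 for pre-iPSCs and 50 and 32 for iPSCs, with a change of -0.35 ± 0.25 from MEFs to pre-iPSCs (edgeR, adjusted p = 0.448). At Smarcd1 it held 49 and 46, 36 and 34, and 46 and 27 reads in the same order, and from MEFs to iPSCs the change was -0.09 ± 0.26. Counts near 40 reads leave such SEs, so small changes of this mark were not detectable at this depth. A change above 2 SEs could also miss the adjusted threshold, as that of Smarce1 did from MEFs to iPSCs. Smarce1, at 75 and 54 reads for MEFs, 51 and 34 for pre-iPSCs and 39 and 27 for iPSCs, had the lowest adjusted p, 0.0635, for a change of -0.66 ± 0.25 from MEFs to iPSCs. It was below 0.05 in a window of 2000 bp either side (log2 change -0.55, adjusted p = 0.0461), in which 22.4% of all promoters were called. Smarcb1 had the highest single count, with 47 to 85 reads over the 6 libraries, though in pre-iPSC replicate 1 Smarce1 had more (51 against 48). Arid1a, whose annotation has a further start at -3158 bp relative to the TSS, had the lowest single count, with 19 to 44. In MEF replicate 1 Smarcc2 (41) and Smarca2 (43) had fewer than Arid1a (44). At that upstream start Arid1a had 59 and 51 reads for MEFs, 51 and 40 for pre-iPSCs and 40 and 38 for iPSCs.

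**Figure D4:**
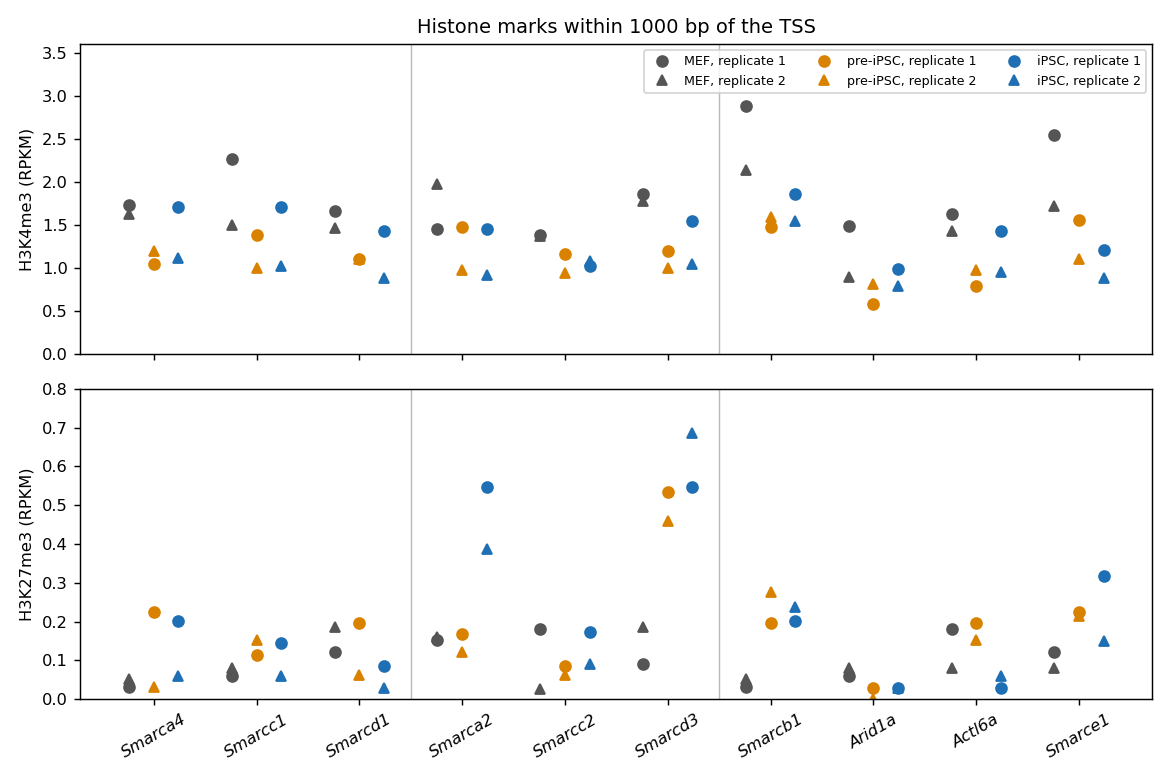
H3K4me3 and H3K27me3 within 1000 bp of the TSS of each subunit, in RPKM, with circles for replicate 1 and triangles for replicate 2. H3K4me3 lies between 0.582 and 2.88 RPKM at every member, whereas H3K27me3 is above 0.38 RPKM only at Smarcd3 in pre-iPSCs and iPSCs and at Smarca2 in iPSCs. The lowest of these H3K27me3 values is 0.388 RPKM and the highest of the rest is 0.317, beside medians over all genes of 0.182 to 0.259.

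H3K27me3 reads were higher at the Smarcd3 promoter in both reprogrammed types than in MEFs, and the Smarca2 promoter had its highest reads in iPSCs. Per library the deposited calls held 13224775 to 15222040 reads. Smarca2 and Smarcd3 passed edgeR's filter on low counts and the other 8 members, with 0 to 11 reads in any library, did not. Both passed it through the cell types in which they were high, since their MEF reads lay in the range of the members left out, so the filtered test was run on members that had to differ, and the number of members called in it is no result. The fit with no filter, which took in all 10 members and 19832 promoters, is therefore given first. At Smarcd3 the reads within 1000 bp of the TSS were 3 and 7 for MEFs, 19 and 15 for pre-iPSCs and 19 and 23 for iPSCs. MEFs were below the other 4 libraries. With no filter, by edgeR's quasi-likelihood test, they rose by 1.68 ± 0.50 (log2, SE) from MEFs to pre-iPSCs (Benjamini-Hochberg adjusted p = 0.0337), where 1 of 10 members and 1.84% of all promoters rose. From MEFs to iPSCs they rose by 1.89 ± 0.48 (adjusted p = 0.00649), where 1 of 10 members and 3.08% of all promoters did. No member was called between pre-iPSCs and iPSCs, where 0.187% rose. In the same fit 2, 2 and 3 of the 10 members were below an unadjusted p of 0.05 (pre-iPSCs against MEFs, iPSCs against pre-iPSCs, iPSCs against MEFs), beside 15.4%, 8.57% and 20.0% of all promoters. The lowest adjusted p of the 8 members with few reads was 0.0683, for Smarcb1 with 1 and 2 reads in MEFs and 7 and 9 in pre-iPSCs. Its log2 change was 2.26 ± 0.75 from MEFs to pre-iPSCs and 2.08 ± 0.76 from MEFs to iPSCs (edgeR, adjusted p = 0.0855). Both changes were larger than those of Smarcd3 but rest on fewer reads. With the filter the changes of Smarcd3 were 1.78 ± 0.49 (adjusted p = 0.011) and 2.03 ± 0.47 (adjusted p = 0.00149), over 10187 promoters of which 5.08% and 7.28% rose, and 0.687% rose from pre-iPSCs to iPSCs. The adjusted p of the filtered fits, here and for Smarca2, are given for reference only, since the filter selected on the difference tested. The mean level at Smarcd3 was 0.138 ± 0.067 RPKM for MEFs, 0.496 ± 0.054 for pre-iPSCs and 0.617 ± 0.098 for iPSCs (SD, n = 2). Over all genes the median H3K27me3 level of a library lay between 0.182 RPKM (MEF replicate 1) and 0.259 RPKM (iPSC replicate 1). Ranked among all genes, Smarcd3 was at percentile 24.1 (replicate 1) and 46.1 (replicate 2) of the MEF libraries. In the reprogrammed libraries its percentile was 76.2 to 91.4.

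At Smarca2 the reads were 5 and 6 for MEFs, 6 and 4 for pre-iPSCs and 19 and 13 for iPSCs. iPSCs were above the other 4 libraries. With no filter the log2 changes did not pass edgeR's test, at 1.36 ± 0.48 from MEFs to iPSCs (adjusted p = 0.0713) and 1.56 ± 0.49 from pre-iPSCs to iPSCs (adjusted p = 0.168). With the filter, which Smarca2 passed through its iPSC reads, the iPSC level was 2.83-fold that of MEFs (SE 0.50 on the log2 scale, adjusted p = 0.0355), and the log2 change from pre-iPSCs was 1.60 ± 0.51 (adjusted p = 0.116). In a window of 2000 bp either side the latter was 1.70 and passed (adjusted p = 0.00215), as did 1.17% of all promoters, while the change from MEFs was 0.81 (log2) and did not (adjusted p = 0.0593). The mean level was 0.155 ± 0.005 RPKM for MEFs, 0.145 ± 0.033 for pre-iPSCs and 0.468 ± 0.113 for iPSCs. Ranked among all genes, Smarca2 was at percentile 82.5 of iPSC replicate 1 and 67.7 of iPSC replicate 2. Its percentile in the remaining libraries was 26.8 to 41.3. DESeq2, also with the filter, called neither gene, with adjusted p of 0.315 and 0.171 for Smarcd3 and 0.574 for Smarca2. It called few promoters at all. Of 10410 tested, 36 were higher and 10 lower from MEFs to pre-iPSCs, and 12 higher and 6 lower from MEFs to iPSCs. With the filter, the Smarca2 call did not hold when any MEF or iPSC library was left out (adjusted p 0.0673 to 0.395), and that of Smarcd3 was lost without MEF replicate 1 (0.155 for pre-iPSCs and 0.0524 for iPSCs against MEFs) and, for pre-iPSCs, without pre-iPSC replicate 1 (0.109). MEFs were digested differently, which cannot be told apart from the cell type in comparisons with MEFs.

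Over 5000 bp either side of the Smarcd3 TSS the H3K27me3 reads were 40 and 81 for MEFs, 138 and 114 for pre-iPSCs and 138 and 127 for iPSCs. MEFs were lowest there too, and the reprogrammed types overlapped. At Smarca2 the same span held 77 and 76 reads for MEFs, 43 and 41 for pre-iPSCs and 89 and 90 for iPSCs. In that wider span pre-iPSCs, which had the most Smarca2 RNA, had the fewest H3K27me3 reads, and MEFs and iPSCs were closer to each other than within 1000 bp. These wider spans are described and were not tested.

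**Figure D5:**
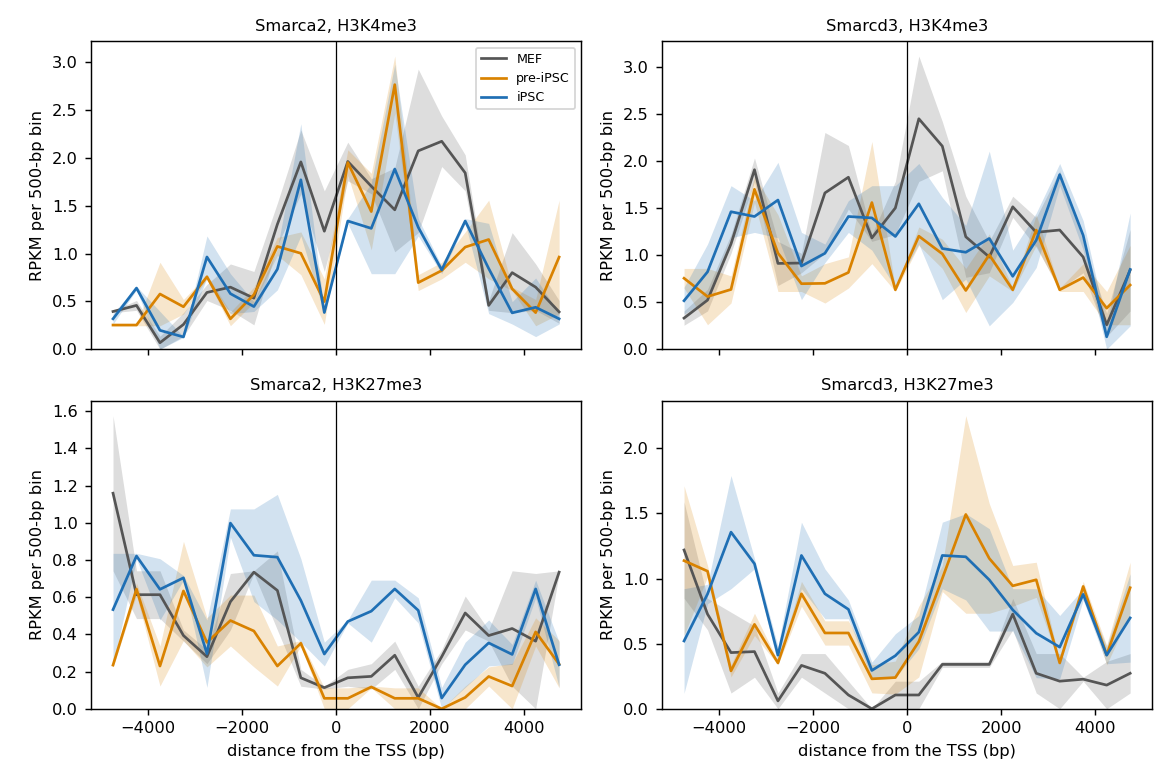
H3K4me3 and H3K27me3 in 500-bp bins from 5000 bp before to 5000 bp after the TSS of Smarca2 and Smarcd3, in RPKM, with lines at the mean of 2 libraries and shading between them. The H3K27me3 line of iPSCs is above that of pre-iPSCs around the Smarca2 TSS, and at Smarcd3 the lines of pre-iPSCs and iPSCs are above that of MEFs over most of the downstream side.

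A protein-coding transcript of Smarca2 starts at chr19:26822893, 143243 bp after the main TSS in intron 27 of the long transcript of 33 exons. Within 1000 bp of it H3K4me3 had 66 and 40 reads for MEFs, 39 and 29 for pre-iPSCs and 21 and 19 for iPSCs. Both iPSC libraries were below the other 4, at 0.652 and 0.625 RPKM against 2.24 and 1.27 in MEFs and 1.20 and 0.942 in pre-iPSCs. With the TMM factors of the edgeR fit, iPSCs were again lowest, at 0.671 and 0.699 RPKM, whereas MEFs (1.71 and 1.20) and pre-iPSCs (1.26 and 1.07) overlapped. H3K27me3 there had 2 and 2 reads for MEFs, 1 and 1 for pre-iPSCs and 6 and 12 for iPSCs. At a further annotated start 146787 bp after the main TSS, H3K4me3 had 13 and 12 reads for MEFs, 12 and 11 for pre-iPSCs and 16 and 7 for iPSCs, and there the types overlapped. Both sites were looked at after the data had been seen and were not tested. Unlike the CpG-rich stretch before the main TSS, the stretch printed for it held 6 CpGs.

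With a mark counted as present above 1 RPKM within 1000 bp of the TSS, H3K4me3 was present and H3K27me3 absent at 10 and 9 of the 10 members for MEFs, 8 and 6 for pre-iPSCs and 9 and 5 for iPSCs. The share of all genes in that state was 55.7% and 46.8%, 40.1% and 35.6%, and 40.3% and 34.0%. The study set this level in a window of 500 bp either side, in which the members in that state were 10 and 9 for MEFs, 4 and 5 for pre-iPSCs and 9 and 3 for iPSCs, beside 55.8% and 47.1%, 40.2% and 30.5%, and 44.2% and 32.1% of all genes. The state of a single member thus depended on the window and the library. No member had H3K27me3 above 1 RPKM in any library or in either window, so Smarcd3 and Smarca2 were not bivalent by this level. Few genes reached it. Within 1000 bp, 0.432% to 2.15% of all genes had H3K27me3 alone above it and 0.347% to 0.863% had both marks. Within 500 bp the shares were 0.918% to 2.58% and 0.437% to 0.903%. Within 1000 bp the highest H3K27me3 level was 0.686 RPKM, at Smarcd3 in iPSC replicate 2.

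H3K9me3, with 1 library per cell type, allows no test. The members had 1 to 14 reads within 1000 bp of the TSS. Smarcd3 had the most in pre-iPSCs and iPSCs, with 7 reads for MEFs, 12 for pre-iPSCs and 14 for iPSCs, or 0.230, 0.374 and 0.463 RPKM with exact 95% Poisson intervals of 0.0923 to 0.473, 0.193 to 0.654 and 0.253 to 0.777, which cover counting error only. Smarca2 had 4, 6 and 10 reads in the same order, with intervals of 0.0357 to 0.336, 0.0687 to 0.407 and 0.159 to 0.608 RPKM. For both genes the intervals overlapped between all types. The median over the members was 0.131, 0.203 and 0.199 RPKM beside 0.197, 0.234 and 0.265 over all genes.

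H3 reads next to the members' TSSs were few relative to a flank further upstream, as at other genes of similar expression. H3 replicate 1 of pre-iPSCs and of iPSCs stood apart, with 93 to 254 and 69 to 149 reads per member within 1000 bp of the TSS against 8 to 48 in the other 4 libraries. In those 4 libraries the H3 read density from 150 bp before to 50 bp after the TSS, summed over the 10 members, was 0.118 to 0.256 of that in a flank of 1000 bp that starts 2000 bp upstream, against 0.545 to 0.625 over all genes. In genes with a mean of 10 to 100 FPKM, which is where most members lie, the ratio was 0.200 to 0.284. The members' ratios rest on 6 to 15 reads per library next to the TSS. In iPSC replicate 2 the members, at 0.256, were not below these genes, at 0.246. In the 2 libraries that stood apart the members' ratio was 0.392 and 0.411, against 0.608 and 0.439 in genes with a mean of 10 to 100 FPKM and 1.33 and 0.895 over all genes. edgeR called 0 of the 10 members in H3 reads in each of the 3 comparisons, and 0 of 19578 promoters (0.0%), with 343, 107 and 248 promoters at an unadjusted p below 0.05 and none called by DESeq2. No member was called without the 2 libraries that stood apart either, in a fit that called 26, 0 and 9 of 19586 promoters (0.133%, 0.0% and 0.046%). The H3 libraries varied more between replicates than those of the marks, with a common dispersion of 0.168 in edgeR against 0.011 for H3K4me3 and 0.0115 for H3K27me3. Without pre-iPSC replicate 2, which leaves pre-iPSCs with the library that stood apart, edgeR called 1626 promoters higher and 3290 lower from MEFs to pre-iPSCs, of 19635, and, between pre-iPSCs and iPSCs, 1906 higher in iPSCs and 157 lower. None of the 10 members was among them, with adjusted p of 0.18 to 0.603 and 0.439 to 0.931.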

How the data were processed

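The data are 21 MNase ChIP-seq and 6 RNA-seq libraries. ChIP-seq reads were mapped by the authors with Bowtie 1.0.1 (mm9), unique reads were kept and nucleosomes called with GeneTrack. The deposited calls give each nucleosome's count of reads and its fuzziness. Reads outside the calls were not used here, and the calls held 12007350 to 15222040 reads per library of a mark and 67362868 to 108211816 per H3 library. For RNA-seq, the authors computed the deposited FPKM with TopHat2 2.0.4 and Cufflinks 2.0.2, in 2 tables that hold replicates 1 and 2. The submitters' processing notes give these versions. FPKM columns of the 2 tables were joined by gene.

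For expression, limma 3.58.1 with a mean-variance trend was fitted to log2(FPKM + 1) of all 6 libraries for genes averaging 0.5 FPKM or more, with cell type and table as terms. The table was a term because the tables were deposited apart, though the sources used here do not say that libraries of a table were handled together. Counts of called nucleosomes with dyads within 1000 bp of each TSS were fitted with the quasi-likelihood method of edgeR 4.0.16, after filterByExpr and TMM scaling, and, as an alternative, DESeq2 1.42.0. RPKM used the study's unique read totals. R 4.3.3 and Python 3.11.15 with scipy 1.17.1, pandas 2.3.3, numpy 2.4.6 and matplotlib 3.10.9 were used. The limma fit and the edgeR fits of H3K4me3 and H3K27me3 were also run on simulated data. The changes planted for expression were larger than some of those called here, H3 was not simulated, and no result rests on that run. Annotation is GENCODE on mm9.

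Members and lists were chosen with earlier results of these data known. Genes are named by a rule: every member, other subunits below an adjusted p of 0.05 or not found by symbol, other ATPases called at 2-fold, and the 3 genes of highest Pearson r to the members of largest called rise and fall from MEFs to iPSCs. Cell type markers are named as a check, and Smarcd2 and Smarcb1's few H3K27me3 reads were singled out after their values had been seen. Alternatives covered pseudocounts, filters, scaling, windows, tools, blocks and left-out libraries. The H3 fit without 2 libraries and the counts at internal starts were added after the data had been seen. Protein sequences were not used here.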

Additional observations from a re-analysis of the deposited data

How the results depend on the processing

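No fold minimum or one of 1.5, pseudocounts of 0.1 or 0.5, a filter at a mean of 1 FPKM, a fit without the trend and one without the table term (no replicate block) kept the number of members called in expression within 1.5 times. With no filter on low values the number was 0 of 10 from MEFs to pre-iPSCs (main 3). From MEFs to iPSCs it was 1, Smarcd1 (main 4). That fit tested 20156 genes and called 0 of them in the former comparison. In the latter it called 283 up and 266 down, against 1279 and 1927 in the main fit. With 1 library left out the numbers ranged from 0 to 3 from MEFs to pre-iPSCs and from 1 to 4 from MEFs to iPSCs. For H3K4me3, scaling to unique reads without TMM and a window of 2000 bp each gave 1 member, Smarce1, from MEFs to iPSCs (main 0), where 18.2% and 22.4% of all promoters were called. For H3K27me3 the filtered counts, 1 for pre-iPSCs and 2 for iPSCs against MEFs, come from 2 members that had to differ and are given for reference only; DESeq2 with the same filter gave 0 for both. In a window of 500 bp no member passed the filter, so it gave no count. A window of 2000 bp, in which 8 members passed, gave 2 for pre-iPSCs against MEFs (Smarcd3 and Smarce1; 9.55% of all promoters), 1 for iPSCs against MEFs (Smarcd3; 15.9%) and 1 from pre-iPSCs to iPSCs (Smarca2; 1.17%; main 0). No filter, with all 10 members tested, and calls of at least 2 reads, with 2, each gave 1, Smarcd3, from MEFs to iPSCs. Leaving out 1 library gave 0 to 1 from MEFs to pre-iPSCs and 0 to 2 to iPSCs. The causes were not tested. The replicate block changed no member's call for any mark. For expression the replicate numbers were not shown to pair libraries: the difference of replicate 2 minus 1 correlated across 12401 genes with r = 0.35 between MEFs and pre-iPSCs, 0.11 between pre-iPSCs and iPSCs and -0.20 between MEFs and iPSCs. With no replicate block the same members were called in each comparison. At 2 RPKM, H3K4me3 was present in 4 of 60 member and library pairs, against 47 at 1 RPKM. No called change of a member reversed its direction under any of these alternatives. H3K27me3 results within 1000 bp of the TSS rest on at most 23 reads per library and promoter, and every comparison rests on 2 libraries per cell type. The lone library of a type, where 1 was left out, was assumed to vary like the others.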
